A study of Cricetulus griseus with 24 samples.

Results

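Aminoacyl-tRNA synthetases are the enzymes that join each amino acid to its transfer RNA (tRNA) and so supply the ribosome with substrates. Members were taken by symbol: 1 letter followed by ars with or without a closing 1 or 2, plus Eprs, Farsa, Farsb and Tarsl2. That rule gave 38 of the 28037 genes counted in Chinese hamster ovary (CHO) cells, 21 for the cytosolic enzymes and 17 for the mitochondrial ones, whose symbols end in 2. Tarsl2, a second threonyl enzyme, was placed with the cytosolic set, as were Gars and Kars, which each encode the enzyme of both compartments. All 38 genes were protein-coding in the RefSeq gene table of the Chinese hamster, and all 38 passed the expression filter in every comparison.

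The cytosolic enzymes fall into 2 structural classes of unrelated catalytic folds, and 8 of them (Dars, Eprs, Iars, Kars, Lars, Mars, Qars and Rars) sit in a multisynthetase complex held by the scaffolds Aimp1, Aimp2 and Eef1e1. Nuclear genes encode the mitochondrial enzymes as well, which charge the tRNAs used for the few proteins made inside mitochondria. In mammalian cells many cytosolic synthetase genes are known targets of Atf4, the transcription factor whose translation rises when amino acids run short or unfolded protein builds up in the endoplasmic reticulum. A cell that secretes antibody draws on the same charged tRNA as it does for its own proteins.

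RNA sequencing covered A0, A1 and CHO-S cells, each in exponential and stationary growth, as 24 libraries of 20 cultures. A0 is an antibody-producing clone of the DG44 lineage, made by co-transfection of a heavy-chain plasmid and a light-chain plasmid carrying neomycin resistance and selected with G418. A1 is its progeny after stepwise exposure to methotrexate, which selects for extra copies of the heavy-chain plasmid, and CHO-S is a separate CHO line not labelled as a producer, whose libraries are titled NDST, a term the labels do not explain. Each of A0 and A1 is a single clone, so a difference between lines carries the history of the clone along with amplification or production. There were 4 cultures of A0 and 3 each of A1 and CHO-S at each phase, and the independence of these replicates rests on their culture numbers. RNA from a whole culture cannot tell fewer cells expressing a gene from less RNA per cell.

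Libraries held 6532373 to 14652646 counted reads, apart from CHO-S stationary culture 1 with 1038026. In that shallow library 32.8% of reads fell outside annotated genes against 11.9% to 18.4% elsewhere, and its member levels departed from those of its replicates in both directions. The valyl enzyme Vars (gene 100769994) stood at 37.2, 142 and 151 CPM (counts scaled to library size with TMM factors) in CHO-S stationary cultures 1, 2 and 3, and the asparaginyl enzyme Nars (gene 100764751) at 555, 254 and 258. Vars was thus lowest and Nars highest in culture 1, and Pars2, the mitochondrial prolyl enzyme, had 1 read there. Counts of called genes in comparisons with CHO-S stationary cells are therefore given with and without this culture, a choice made after the values had been seen. The share of reads that did not align moved with line and phase: 3.13% to 4.85% in A0 exponential, 6.43% to 9.41% in A0 stationary, 7.49% to 8.64% in A1 exponential, 10.3% to 11.5% in A1 stationary, 2.31% to 2.36% in CHO-S exponential and 2.35% to 3.06% in CHO-S stationary libraries. Whether that share bears on the member levels was not tested.

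The 4 genes listed for fibroblast-like CHO cells summed to 3649 to 4628 CPM in A0 exponential, 2290.0 to 2545 in A0 stationary, 3792 to 4316 in A1 exponential, 3777 to 4183 in A1 stationary, 6691 to 7149 in CHO-S exponential and 5067 to 8712 in CHO-S stationary cultures. The epithelial list summed to at most 3.85 and the granulosa list to at most 2.42 CPM in any culture, with Krt18 and Fshr at or near 0, and the granulosa gene Foxl2 was not analysed here. Of the 2 leukocyte genes, Ptprc was at or near 0, while Cd68, the more abundant of the pair, made the summed level 2.29 to 3.28 CPM in exponential and 16.9 to 65.3 in stationary A0, 2.78 to 3.20 and 8.26 to 11.9 in A1, and 3.59 to 3.8 and 29.0 to 39.2 in CHO-S. The 4 proliferation genes summed to 2655 to 3133 CPM in exponential and 827 to 1546 in stationary A0, 2438 to 2584 and 1714 to 1911 in A1, and 2441 to 2487 and 1342 to 2124 in CHO-S, and all 4 fell in A0 and A1 and 2 in CHO-S, or 4 without CHO-S stationary culture 1. Of all genes tested 20.1%, 17.8% and 6.48% fell, and 24.7% in CHO-S without that culture. Whether these shifts account for any movement of the members was not tested.

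Added over its 21 genes, the cytosolic set made up 4027 ± 258 CPM (mean ± SD over cultures) in A0 exponential cells and 6116 ± 146 in A0 stationary cells. The corresponding sums were 3913 ± 127 and 4754 ± 68.8 in A1, and 4013 ± 91.2 and 3337 ± 89.2 in CHO-S (stationary mean 3287 without culture 1). The 3 lines thus started from similar cytosolic totals in exponential growth and parted in stationary phase, upward in A0 and A1 and downward in CHO-S. Mean mitochondrial totals were lower in stationary phase in all 3 lines, from 597 ± 18.8 to 551 ± 19.5 CPM in A0 and from 680.5 ± 17.7 to 577 ± 15.7 in A1, and from 707 ± 6.79 to 584 ± 118 in CHO-S (652 without culture 1). By group mean, 12 of the 21 cytosolic genes were highest in A0 stationary cells, 4 in CHO-S exponential and 3 in A0 exponential cells, while 7 of the 17 mitochondrial genes were highest in CHO-S exponential and 4 in A0 exponential cells. The share of all genes with their highest mean in each group was not computed. For 9 cytosolic genes (Aars, Farsb, Gars, Iars, Lars, Mars, Sars, Tars and Yars) every A0 stationary culture lay above every culture of the other 5 groups, as did 5% of all genes and 6.53% of those with a mean of 10 CPM or more.

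**Figure D1:**
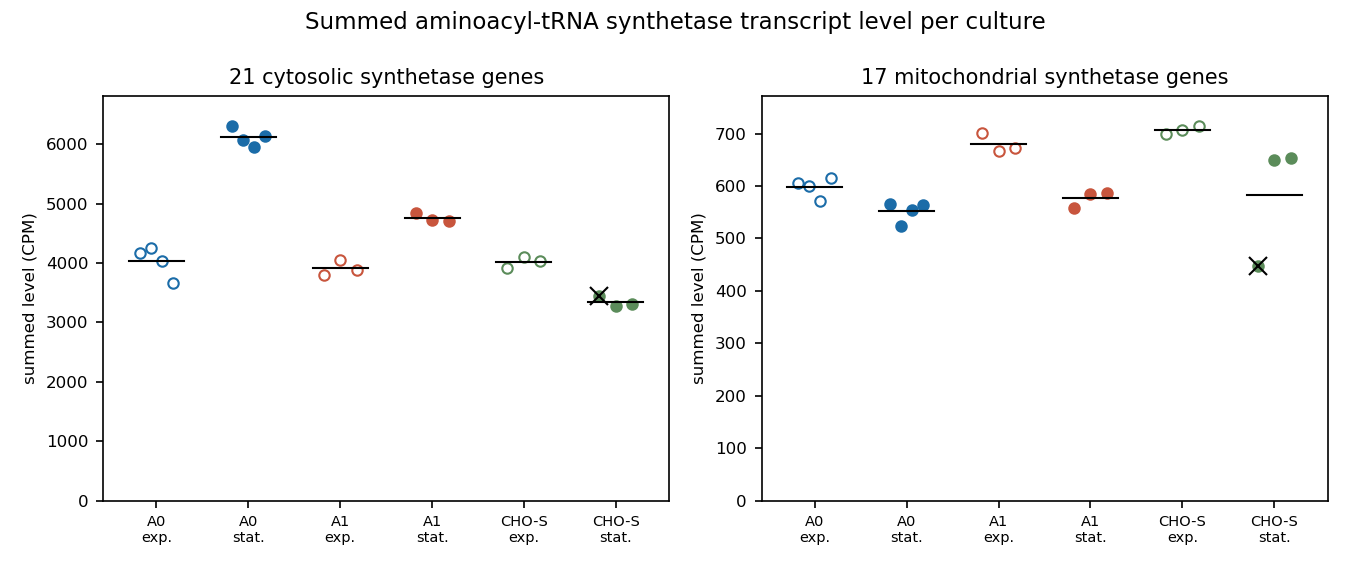
Summed CPM of the 21 cytosolic and the 17 mitochondrial synthetase genes in each of the 20 cultures. Points are cultures and black lines are group means.

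Cells in stationary phase generally divide little, in a medium from which earlier growth has drawn amino acids, while a producing line can go on secreting antibody. Scarcity of amino acids leaves tRNAs uncharged, and uncharged tRNA activates the kinase Eif2ak4 upstream of Atf4. The first question was how far the synthetase transcripts of A0 moved between growth phases. In A0, 13 of 21 cytosolic genes rose in stationary phase and 5 fell, where 17.7% of all genes tested rose and 20.1% fell. The median log2 fold change of the cytosolic set was 0.57, against 0.00131 for all genes, and 5 cytosolic genes moved at least 2-fold. For this and later counts of 2-fold changes the share of all genes was not computed. Of the 17 mitochondrial genes 3 rose and 4 fell, with a median of -0.04.

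Nars (gene 100764751) and Sars (gene 100689195), which charge asparagine and serine, led the rises in A0. Nars stood at 152, 151, 130.2 and 121 CPM in the exponential and 411, 401, 349 and 364 in the stationary cultures, a log2 fold change of 1.45 (SE 0.10, adjusted p = 3.5e-08) by edgeR, where SE is the standard error. Sars went from 213, 202, 169 and 151 to 565, 505, 463 and 474 CPM, a change of 1.44 (SE 0.12, adjusted p = 1.4e-07). For both genes the lowest stationary culture lay above the highest exponential culture. Next came the leucyl enzyme Lars (gene 100764360) at 1.32, the alanyl enzyme Aars (gene 100766178) at 1.17 and the tyrosyl enzyme Yars (gene 100751260) at 1.15, with adjusted p = 2.2e-08, 7.1e-08 and 1.3e-06.

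Among the cytosolic falls in A0 the largest was that of Tarsl2 (gene 100772235), at 61.4, 58.2, 68.7 and 56.7 CPM in exponential and 36.9, 34.4, 29.2 and 31.3 in stationary cultures, a log2 fold change of -0.91 (SE 0.11, adjusted p = 4.9e-06). The exponential cultures were all higher than the stationary ones. The other cytosolic falls, all 4 in enzymes of the complex, were Rars (arginine, -0.53, adjusted p = 0.00125), Dars (aspartate, -0.47, adjusted p = 0.00695), Kars (lysine, -0.31, adjusted p = 0.024) and Qars (glutamine, -0.28, adjusted p = 0.0281). Mitochondrial rises were Pars2 (proline, 0.62, adjusted p = 0.00133), Wars2 (tryptophan, 0.57, adjusted p = 0.0104) and Ears2 (glutamate, 0.49, adjusted p = 0.00866), and falls included Sars2 (serine, -0.73, adjusted p = 9.3e-05) and Vars2 (valine, -0.59, adjusted p = 0.00458), with Hars2, for histidine, nearest 0 (0.00421). Leaving out single cultures cost the calls of Qars without A0 exponential culture 1 (0.0711), Kars and Lars2 without A0 exponential culture 2 (0.0619 to 0.0858), Kars without A0 exponential culture 3 (0.0568), Lars2 without A0 exponential culture 4 (0.0565), Lars2 without A0 stationary culture 1 (0.0501), Kars, Qars and Lars2 without A0 stationary culture 2 (0.0602 to 0.0893), Kars, Qars and Lars2 without A0 stationary culture 3 (0.0557 to 0.0853) and Qars and Lars2 without A0 stationary culture 4 (0.0685 to 0.0915), with adjusted p in brackets.

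**Figure D2:**
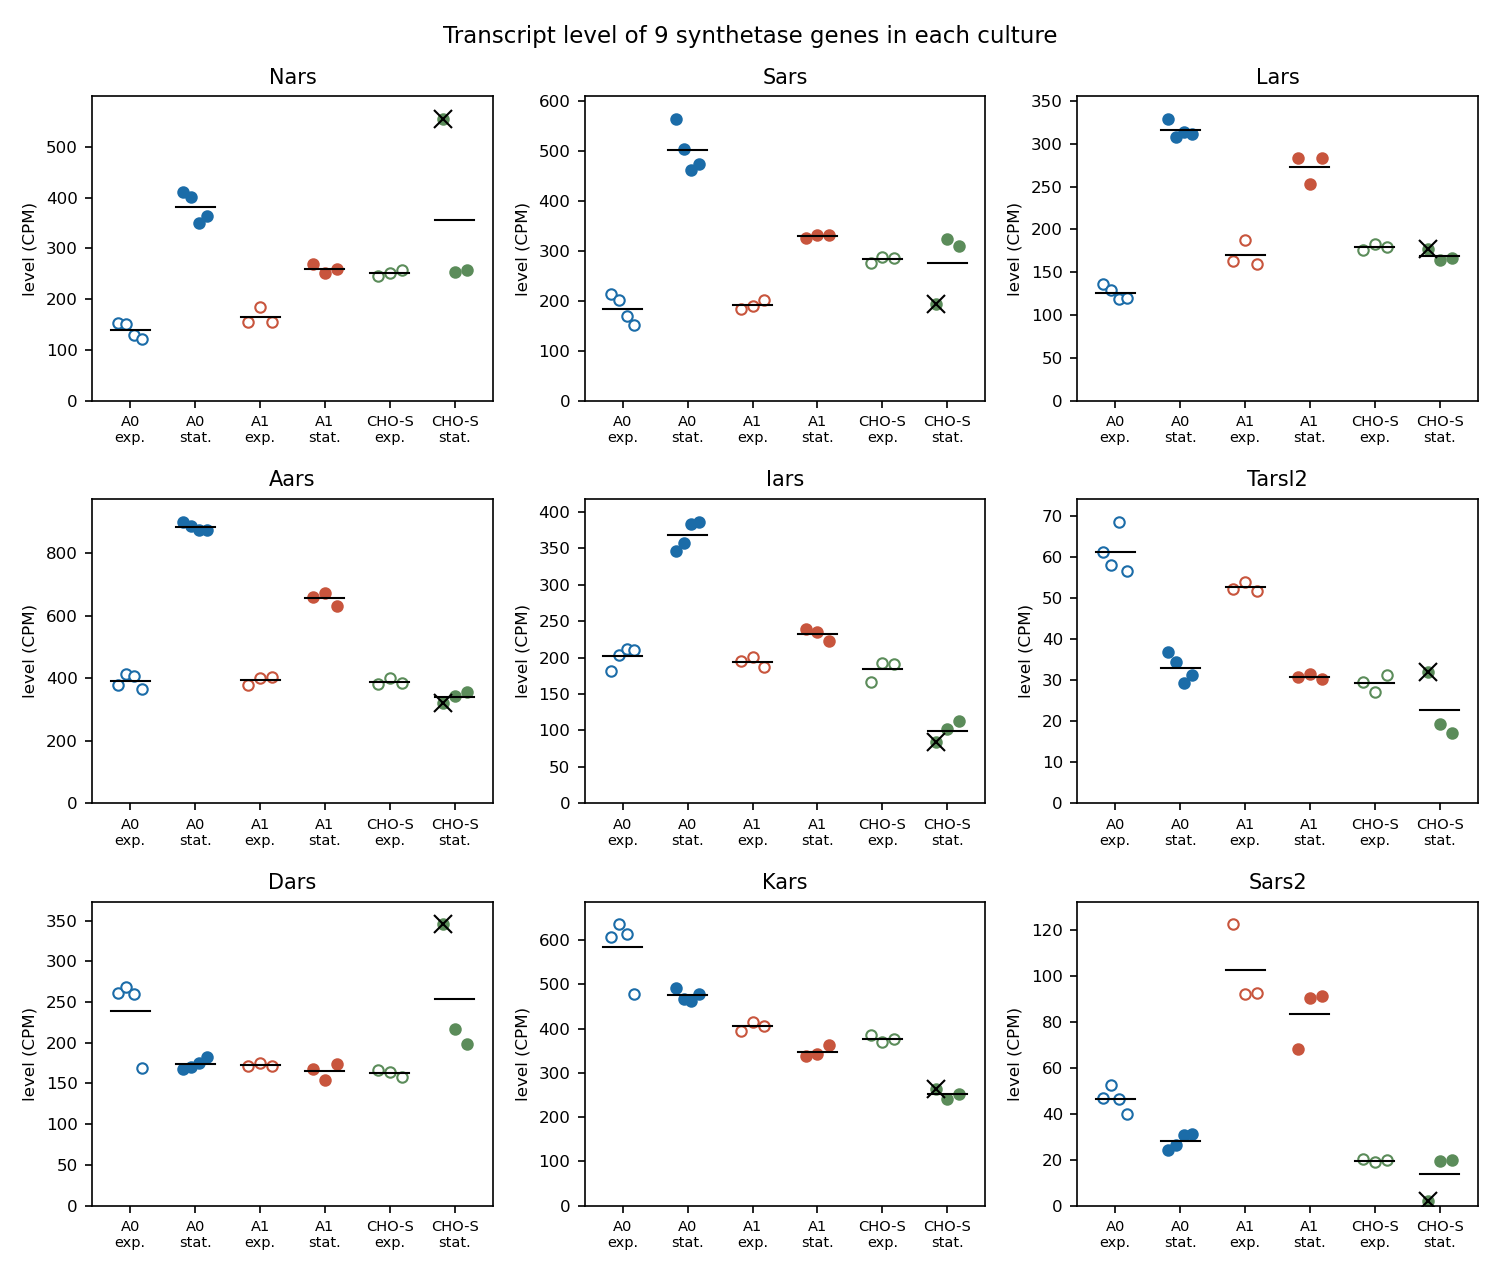
CPM per culture of 9 synthetase genes in the 6 groups. Filled points are stationary cultures, black lines are means, and the cross marks the shallow CHO-S stationary culture 1.

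The A0 cultures came as 2 sets, since cultures 1 and 2 had a second exponential library titled RLT and cultures 3 and 4 a duplicate library. Each set was also fitted alone. With cultures 1 and 2 and with cultures 3 and 4, Nars changed by 1.41 and 1.51, Sars by 1.36 and 1.55, Lars by 1.25 and 1.40, and the isoleucyl enzyme Iars (gene 100754316) by 0.86 and 0.87. These 4 genes were past the threshold in both sets. Of the 5 cytosolic falls 3 were smaller in the second set, -0.82 and -0.23 (adjusted p = 0.102) for Rars, -0.65 and -0.26 (adjusted p = 0.371) for Dars, and -0.38 and -0.21 (adjusted p = 0.283) for Kars. Tarsl2 fell by more in the second set (-0.76 and -1.05), as did Qars by a little (-0.26 and -0.28, adjusted p = 0.101 in the second). With cultures 3 and 4 alone the calls of Kars, Qars, Rars, Dars, Wars2, Ears2, Vars2 and Lars2 were lost, and with cultures 1 and 2 alone those of Farsb (0.19, adjusted p = 0.0573) and Lars2 (adjusted p = 0.0501).

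Stepwise methotrexate selects cells in which the heavy-chain plasmid has multiplied, and more copies can mean more antibody message to translate. Whether such a line answers the end of growth as its parent does can be read from the same phase comparison in A1, which shares no culture with that in A0. Among the cytosolic genes of A1, 12 rose and 4 fell, beside 15.6% and 17.8% of all genes tested, and the median was 0.28 against 0.03 for all genes. None of the cytosolic genes moved 2-fold. Of the mitochondrial genes 0 rose by edgeR and 6 fell, with 1 higher at unadjusted p under 0.05 and 0 by DESeq2, and their median was -0.12. Of the 22 members called in A1, 12 were called under every alternative setting, which included 1 fit of all 6 groups.

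Sars again headed the rises in A1, from 184, 189 and 201 CPM to 326, 332 and 333, a log2 fold change of 0.81 (SE 0.06, adjusted p = 8.8e-13). Aars, the alanyl enzyme, moved from 379, 399.5 and 404 to 661, 674 and 632 CPM, a change of 0.75 (SE 0.05, adjusted p = 9.6e-13). In both cases the phases did not overlap. After them came Lars (0.70, adjusted p = 3.3e-10), Nars (0.68, adjusted p = 5.0e-10) and Yars (0.65, adjusted p = 4.9e-10). Tarsl2 dropped from 52.4, 53.9 and 51.7 to 30.9, 31.4 and 30.3 CPM, a change of -0.75 (SE 0.08, adjusted p = 2.7e-09), again without overlap, and the other cytosolic falls were Rars (-0.42, adjusted p = 1.3e-06), Qars (-0.26, adjusted p = 8.4e-04) and Kars (-0.20, adjusted p = 0.00337). Hars, for histidine, lay nearest 0 at -0.02. Mitochondrial falls included Lars2 (leucine, -0.51, adjusted p = 4.6e-07) and Iars2 (isoleucine, -0.31, adjusted p = 6.9e-05).

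Across the producing lines, 11 cytosolic genes rose in both, out of 13 in A0 and 12 in A1: Aars, Gars, Iars, Lars, Mars, Nars, Sars, Tars, Vars, Wars and Yars. Kars, Qars, Rars and Tarsl2 fell in both, out of 5 and 4, and no cytosolic gene was called in opposite directions. Of all genes tested in both lines, 9.78% rose in both, 12.5% fell in both, 0.247% rose in A0 and fell in A1, and 0.511% did the reverse. Lars2 and Sars2 were among the mitochondrial genes lower in both, out of 4 and 6. Single left-out cultures of A1 cost the calls of Vars, Hars2 and Sars2 without A1 exponential culture 1 (0.0947 to 0.357), Vars without A1 exponential culture 2 (0.0988), Cars, Vars, Hars2 and Sars2 without A1 exponential culture 3 (0.051 to 0.0937), Vars and Sars2 without A1 stationary culture 1 (0.0828 to 0.29), Vars, Aars2 and Hars2 without A1 stationary culture 2 (0.0583 to 0.167) and Vars without A1 stationary culture 3 (0.091), again with adjusted p in brackets.

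CHO-S is not described as an antibody producer, and its passage into stationary phase was examined in the same way. It differs from A0 and A1 in origin too, and the labels do not separate that from production. With all 3 stationary cultures, 0 cytosolic genes rose by edgeR (1 at unadjusted p under 0.05 and 0 by DESeq2) and 4 fell, and 0 mitochondrial genes rose (0 unadjusted and 0 by DESeq2) and 2 fell. Across all genes 6.81% rose and 6.48% fell. The cytosolic median was -0.41 and the mitochondrial median -0.16, against 0.02 for all genes. Called falls were Iars (-0.86, adjusted p = 0.0131), Kars (-0.58, adjusted p = 0.0199), Hars (-0.53, adjusted p = 0.0253) and Gars (glycine, -0.50, adjusted p = 0.0303) in the cytosolic set and, among the mitochondrial genes, Rars2 (arginine, -0.45, adjusted p = 0.0394), with Nars2, for asparagine, nearest 0 (0.01). The calls of these 5 genes were lost without exponential culture 1, 2 or 3 or stationary culture 2, and all but that of Iars without stationary culture 3, at adjusted p of 0.068 to 0.265. The count of 6 became 0 in each of the first 4 cases by edgeR and 1 in the last.

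Without the shallow culture 1 more CHO-S genes were called: 2 cytosolic genes rose and 17 fell, and 6 mitochondrial genes fell, against 23.1% and 24.7% of all genes. Medians were -0.42 for the cytosolic, -0.06 for the mitochondrial and 0.0028 for all genes, so the cytosolic shift kept its size while the number of calls grew. Iars stood at 167, 193 and 192 CPM in exponential and 83.6, 102 and 113 in stationary cultures 1, 2 and 3, a log2 fold change of -0.78 (SE 0.06, adjusted p = 8.7e-23) without culture 1. All 3 stationary values were below the exponential ones. Next in size were Vars (-0.71, adjusted p = 2.6e-22), Tarsl2 (-0.67, adjusted p = 3.5e-09) and Kars (-0.61, adjusted p = 4.2e-22), and the 2 that rose were Dars (0.36, adjusted p = 3.3e-10) and Sars (0.17, adjusted p = 9.0e-04).

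Set beside A0, the CHO-S phase response without culture 1 shared 1 rise (Sars, of 13 and 2) and 4 falls (Kars, Qars, Rars and Tarsl2, of 5 and 17). In contrast 10 cytosolic genes rose in A0 and fell in CHO-S (Aars, Farsb, Gars, Hars, Iars, Lars, Tars, Vars, Wars and Yars), and Dars fell in A0 and rose in CHO-S. For all genes tested in both the shares were 8.89% up in both, 12.7% down in both, 1.91% up in A0 and down in CHO-S, and 3.78% the reverse. A1 and CHO-S likewise shared the rise of Sars and the same 4 falls, while 9 cytosolic genes that rose in A1 fell in CHO-S (Aars, Cars, Gars, Iars, Lars, Tars, Vars, Wars and Yars). The shares of all genes were 8.25%, 12.4%, 1.89% and 2.78% in the same order.

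A difference in phase response between lines needs its own test, because a gene can pass the threshold in one line and miss it in another without the lines differing. The interaction of line and phase asks, gene by gene, whether the stationary change in A1 differed from that in A0. It draws on the same cultures as the phase comparisons. For 10 cytosolic genes the change was lower in A1 than in A0 and for 0 it was higher by edgeR (1 at unadjusted p under 0.05 and 0 by DESeq2). The mitochondrial counts were 1 lower and 0 higher (2 unadjusted and 0 by DESeq2), and among all genes 5.04% were higher and 3.9% lower. The cytosolic median was -0.39, the mitochondrial median -0.15 and the median of all genes 0.02. A block of culture number nested in line, chosen after seeing the data, gave 13 cytosolic genes lower and 1 higher (Dars (0.36, adjusted p = 0.0196)), and 2 mitochondrial genes lower and 2 higher (Sars2 (0.42, adjusted p = 0.0155) and Vars2 (0.47, adjusted p = 0.0319)), against 8.92% higher and 7.47% lower among all genes. The pairing behind that block was not seen in all A1 cultures (r of -0.172 to 0.182). In A0, stationary cultures 3 and 4 correlated more with an exponential culture of another number than with their own. With A0 cultures 1 and 2 alone 12 cytosolic genes were lower and 2 higher, Dars (0.57, adjusted p = 9.5e-05) and Rars (0.36, adjusted p = 0.00619), and 4 mitochondrial genes were lower and 2 higher, Sars2 (0.67) and Vars2 (0.60), against 12% and 10.7% of all genes. With A0 cultures 3 and 4 alone 12 cytosolic genes and 1 mitochondrial gene were lower, against 3.96% of all genes, and the 4 that were higher with cultures 1 and 2 were not called: Dars (0.20, adjusted p = 0.551), Rars (-0.20, adjusted p = 0.244), Sars2 (0.19, adjusted p = 0.622) and Vars2 (0.37, adjusted p = 0.198).

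Nars had the largest interaction: its stationary cultures stood at 269, 251 and 260.1 CPM in A1 and 411, 401, 349 and 364 in A0, its exponential cultures at 155, 184 and 155 in A1 and 152, 151, 130.2 and 121 in A0, and the difference in log2 change was -0.81 (SE 0.14, adjusted p = 6.3e-04). Stationary A0 was above stationary A1 in every culture. Iars, at 196, 200.1 and 187 to 239, 235 and 223 CPM in A1 and 181, 203, 211 and 210.3 to 346, 358, 383 and 387 in A0, differed by -0.62 (SE 0.11, adjusted p = 0.00109). The remaining cytosolic genes were Sars (-0.67, adjusted p = 0.00481), Lars (-0.65, adjusted p = 0.00115), Yars (-0.54, adjusted p = 0.0276), Vars (-0.47, adjusted p = 0.00528), Aars (-0.45, adjusted p = 0.00895), Hars (-0.43, adjusted p = 0.0112), Gars (-0.40, adjusted p = 0.0342) and Tars (threonine, -0.39, adjusted p = 0.0453), and the mitochondrial gene was Pars2 (-0.61, adjusted p = 0.0304). Calls were lost, with adjusted p in brackets, for Yars and Pars2 without A0 culture 2 (0.0505 to 0.0677), Gars and Tars without A0 culture 3 (0.0594 to 0.0823), Tars without A0 culture 4 (0.066), Gars, Tars, Yars and Pars2 without A1 culture 1 (0.0538 to 0.15), Aars, Gars, Hars, Lars, Sars, Tars, Vars, Yars and Pars2 without A1 culture 2 (0.0544 to 0.321) and Aars, Gars, Hars, Sars, Tars, Vars, Yars and Pars2 without A1 culture 3 (0.0531 to 0.189). The 11 calls became 2 without A1 culture 2 and 3 without A1 culture 3, and Nars and Iars kept theirs whichever culture was left out. With all 6 groups in 1 fit Iars and Lars alone kept their calls and Nars lost its own (-0.80, adjusted p = 0.0623), so 1 of the 11, Iars, was called in every refit.

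The same test against CHO-S, added after the values had been seen, asks whether the producing lines entered stationary phase differently from CHO-S. The tests of A0 and of A1 share the CHO-S cultures, so their results are not independent of each other. For A0, the change was higher than in CHO-S for 14 cytosolic genes and lower for 1, and for the mitochondrial genes the counts were 2 and 0 (0 lower at unadjusted p under 0.05 and 0 by DESeq2), against 3.78% higher and 6.57% lower among all genes. The cytosolic median was 0.97, the mitochondrial 0.15 and that of all genes -0.03. Without CHO-S stationary culture 1 the counts were 16 and 1 cytosolic and 4 and 1 mitochondrial, against 8.43% and 8.75%, with a cytosolic median of 0.93.

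Iars led this interaction at 1.71 (SE 0.18, adjusted p = 6.1e-06), and 1.68 without culture 1, the phases running up in A0 and down in CHO-S. After Iars came Vars (1.59, adjusted p = 0.00546), Yars (1.53, adjusted p = 1.5e-04), Sars (1.44, adjusted p = 4.6e-04), Lars (1.39, adjusted p = 1.0e-05), Aars (1.35, adjusted p = 1.3e-05), Gars (1.25, adjusted p = 4.5e-05) and Wars (tryptophan, 1.15, adjusted p = 4.1e-04). Smaller differences were those of Mars (methionine, 1.05, adjusted p = 0.00675), Tars (0.98, adjusted p = 8.8e-04), Nars (0.97, adjusted p = 0.0288), Hars (0.90, adjusted p = 7.5e-04), Farsa (phenylalanine, alpha subunit, 0.79, adjusted p = 0.0365) and Farsb (phenylalanine, beta subunit, 0.78, adjusted p = 0.00688), and in the mitochondrial set those of Pars2 (0.98, adjusted p = 0.0336) and Wars2 (0.93, adjusted p = 0.0256). The value of Nars depended on CHO-S culture 1 and became 1.46 without its stationary sample and 1.48 without both of its samples. Without that stationary sample Nars, and not Vars, had the largest value of the cytosolic genes outside the multisynthetase complex. Dars (gene 100767438) was the 1 gene with a lower change in A0, at 261, 268, 259 and 169 CPM in exponential A0, 168, 170.2, 176 and 182 in stationary A0, 166, 164 and 158 in exponential CHO-S and 346, 217 and 198 in stationary CHO-S, an interaction of -1.09 (SE 0.24, adjusted p = 0.00609). Its A0 exponential values lay above all CHO-S exponential ones and its A0 stationary values below all CHO-S stationary ones. Left-out cultures removed the calls of Farsa, Nars and Pars2 without A0 culture 1 (0.0651 to 0.0982), Farsa, Nars, Pars2 and Wars2 without A0 culture 2 (0.0606 to 0.0826), Farsa, Nars, Pars2 and Wars2 without A0 culture 3 (0.0665 to 0.106), Nars without A0 culture 4 (0.0837), Farsa, Farsb, Nars, Pars2 and Wars2 without CHO-S culture 2 (0.0578 to 0.148) and Farsa, Farsb, Nars, Pars2 and Wars2 without CHO-S culture 3 (0.0624 to 0.197).

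In the test of A1 against CHO-S the change was higher in A1 for 10 cytosolic genes and lower for 0 by edgeR (1 at unadjusted p under 0.05 and 1 by DESeq2), beside 3.83% and 3.77% of all genes. For the mitochondrial set there were 0 higher (1 unadjusted and 0 by DESeq2) and 0 lower (1 and 1). Medians were 0.67 and -0.03, and 0.03 for all genes. Without culture 1 the counts rose to 17 higher and 1 lower cytosolic and 1 higher and 2 lower mitochondrial, against 13% and 12.4%. Iars again had the largest value at 1.13 (SE 0.16, adjusted p = 9.2e-04), followed by Yars (1.04, adjusted p = 0.0041), Aars (0.93, adjusted p = 5.1e-04), Gars (0.89, adjusted p = 0.00119), Sars (0.82, adjusted p = 0.0251), Lars (0.78, adjusted p = 0.00518), Wars (0.78, adjusted p = 0.00592), Cars (cysteine, 0.77, adjusted p = 0.019), Tars (0.63, adjusted p = 0.0171) and Hars (0.51, adjusted p = 0.0294). Iars, Yars, Aars and Gars kept their calls whichever culture was left out, and the others did not: Cars, Hars, Lars, Sars, Tars and Wars without A1 culture 1 (0.054 to 0.126), Cars, Hars, Sars and Tars without A1 culture 2 (0.0728 to 0.132), Cars, Hars, Lars, Sars, Tars and Wars without A1 culture 3 (0.0559 to 0.151), Cars, Hars, Lars, Sars, Tars and Wars without CHO-S culture 2 (0.051 to 0.161) and Cars, Hars, Sars and Tars without CHO-S culture 3 (0.0828 to 0.11). The 10 calls became 4, 6 and 4 without A1 cultures 1, 2 and 3, and 4 and 6 without CHO-S cultures 2 and 3.

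Comparing A1 with A0 at the same phase puts the amplified line next to its parent directly. Exponential cells are sampled while nutrients generally last, and stationary cells after growth has used much of them. In exponential phase 4 cytosolic genes were higher in A1 and 3 lower, and 5 mitochondrial genes higher and 2 lower, where 12% of all genes were higher and 13.8% lower. Medians were 0.04 and 0.16, against -0.04 for all genes. Higher in A1 were Lars (0.43, adjusted p = 0.00293), Vars (0.37, adjusted p = 0.00365), Farsa (0.28, adjusted p = 0.0205) and Hars (0.26, adjusted p = 0.0344), and lower were Kars (-0.53, adjusted p = 0.00161), Dars (-0.47, adjusted p = 0.0163) and Cars (-0.43, adjusted p = 0.022). Aars was nearest 0 at 0.01.

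Sars2 (gene 100769771), the mitochondrial seryl enzyme, stood out in exponential growth at 122, 91.8 and 92.5 CPM in A1 and 46.9, 52.5, 46.4 and 39.6 in A0, a log2 fold change of 1.14 (SE 0.12, adjusted p = 8.4e-06). All A1 cultures were higher than all A0 cultures, and this was the 1 member of the 38 past 2-fold. Next among the mitochondrial genes were Pars2 (0.62, adjusted p = 0.00273) and Aars2 (alanine, 0.62, adjusted p = 6.2e-04) on the higher side and Cars2 (cysteine, -0.47, adjusted p = 0.0206) and Lars2 (-0.35, adjusted p = 0.00717) on the lower. Calls that depended on a single culture, with adjusted p in brackets, were Hars without A0 exponential culture 1 (0.0553), Cars, Dars, Farsa, Hars and Ears2 without A0 exponential culture 2 (0.0525 to 0.103), Cars, Dars and Ears2 without A0 exponential culture 3 (0.0535 to 0.0848), Cars, Dars, Farsa, Hars, Cars2, Ears2 and Hars2 without A1 exponential culture 1 (0.0524 to 0.115), Cars, Dars, Farsa, Hars, Cars2 and Ears2 without A1 exponential culture 2 (0.0577 to 0.153) and Cars, Dars, Farsa, Hars, Cars2 and Ears2 without A1 exponential culture 3 (0.0501 to 0.163). The 14 calls became 9 without A0 culture 2, and 7, 8 and 8 without A1 cultures 1, 2 and 3. Lars, Vars, Kars, Sars2, Pars2, Aars2 and Lars2 were called whichever culture was left out.

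By stationary phase cells of each clone had gone through the response described above, and the question becomes where the lines ended. In stationary cells 0 cytosolic genes were higher in A1 by edgeR (0 at unadjusted p under 0.05 and 0 by DESeq2) and 12 were lower, against 16% and 17.7% of all genes. Of the mitochondrial genes 2 were higher and 4 lower. The cytosolic median was -0.26 and the mitochondrial 0.01, against -0.00207 for all genes. Iars stood at 239, 235 and 223 CPM in A1 and 346, 358, 383 and 387 in A0, a log2 fold change of -0.68 (SE 0.07, adjusted p = 5.6e-06), with every A1 culture below every A0 culture. The next largest decreases were Gars (-0.62, adjusted p = 7.7e-06), Sars (-0.62, adjusted p = 2.6e-05), Nars (-0.56, adjusted p = 5.3e-05) and Farsb (-0.51, adjusted p = 4.3e-04), and Qars was nearest 0 (0.01).

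Sars2 was again higher in stationary A1, at 68.0, 90.0 and 91.2 CPM against 24.2, 26.4, 30.6 and 31.1 in A0, a log2 fold change of 1.56 (SE 0.12, adjusted p = 3.2e-07) with no overlap. The other mitochondrial gene higher in A1 was Tars2 (threonine, 0.36, adjusted p = 0.0128), and the largest decreases were Lars2 (-0.65, adjusted p = 1.8e-05), Yars2 (tyrosine, -0.50, adjusted p = 0.00116) and Cars2 (-0.42, adjusted p = 0.0207). Mrps12, a mitochondrial ribosomal protein gene that lies next to Sars2, did not move with it: 0.09 (SE 0.13, adjusted p = 0.679) in exponential and -0.06 (SE 0.16, adjusted p = 0.811) in stationary cells. It was looked up after the values of Sars2 had been seen. The exponential and stationary comparisons use different samples, but A0 samples of the same number correlated across phases (r of 0.191 to 0.436), so they are not shown to be independent. Cars and Kars were lower in A1 in both (of 3 and 12), Lars was higher in exponential and lower in stationary cells, Sars2 was higher in both (of 5 and 2), and Cars2 and Lars2 were lower in both (of 2 and 4). Of all genes 6.97% were higher in A1 in both, 8.63% lower in both, 0.476% higher and then lower, and 0.481% lower and then higher. Calls lost on leaving out a culture were Wars and Rars2 without A0 stationary culture 1 (0.0675 to 0.0914), Wars without A0 stationary culture 2 (0.107), Cars2 and Rars2 without A0 stationary culture 3 (0.0555 to 0.0644), Rars2 without A0 stationary culture 4 (0.106), Wars and Rars2 without A1 stationary culture 1 (0.0549 to 0.117), Lars, Wars, Cars2 and Rars2 without A1 stationary culture 2 (0.0758 to 0.239) and Cars, Wars, Cars2 and Rars2 without A1 stationary culture 3 (0.0713 to 0.0867).

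A0 and A1 differ from CHO-S in origin, and the labels do not separate that from selection or production. Exponential cultures set the level from which each phase response began. The comparisons of A0 and of A1 with CHO-S use the same CHO-S cultures. In exponential phase A0 had 9 cytosolic genes higher and 7 lower than CHO-S, and 8 mitochondrial genes higher and 6 lower, against 27.6% and 21.9% of all genes. A1 had 8 cytosolic genes higher and 6 lower, and 7 mitochondrial higher and 8 lower, against 30% and 27.1%. Cytosolic medians were 0.14 for A0 and 0.08 for A1, next to 0.14 and 0.05 for all genes, and mitochondrial medians were -0.04 and -0.10.

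Farsb (gene 100760139) was the cytosolic gene furthest above CHO-S, at 106, 104, 98.0 and 102 CPM in A0, 90.7, 99.3 and 91.4 in A1 and 46.1, 50.8 and 47.4 in CHO-S, log2 fold changes of 1.11 (SE 0.08, adjusted p = 7.0e-08) and 0.96 (SE 0.06, adjusted p = 1.3e-12). Wars (gene 100767856), the tryptophanyl gene, was furthest below, at 57.0, 55.2, 53.5 and 47.7 CPM in A0, 55.4, 59.7 and 62.0 in A1 and 133, 143 and 146 in CHO-S, changes of -1.39 (SE 0.09, adjusted p = 9.5e-09) and -1.26 (SE 0.06, adjusted p = 3.8e-15). Neither gene overlapped between CHO-S and the other lines. Also higher in A0 were Tarsl2 (1.07, adjusted p = 5.7e-07), Tars (0.68, adjusted p = 4.1e-05), Kars (0.64, adjusted p = 1.1e-04) and Dars (0.57, adjusted p = 0.00274), and lower were Nars (-0.85, adjusted p = 3.4e-06), Hars (-0.83, adjusted p = 8.8e-07), Sars (-0.61, adjusted p = 3.2e-04) and Lars (-0.50, adjusted p = 1.4e-04). A1 was further higher for Tarsl2 (0.84, adjusted p = 2.0e-10), Tars (0.75, adjusted p = 3.2e-12), Mars (0.45, adjusted p = 2.8e-07) and Yars (0.44, adjusted p = 6.3e-08), and lower for Nars (-0.62, adjusted p = 8.4e-10), Hars (-0.59, adjusted p = 7.4e-11), Sars (-0.57, adjusted p = 1.2e-10) and Eprs (glutamate and proline, -0.45, adjusted p = 2.3e-08). Aars was nearest 0 in both (0.02 and 0.01).

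Among mitochondrial enzymes the methionyl gene Mars2 (gene 100771401) was highest relative to CHO-S in A0, at 29.7, 27.8, 22.8 and 27.9 CPM against 8.64, 9.11 and 11, a log2 fold change of 1.51 (SE 0.13, adjusted p = 2.7e-07). Next in A0 were Sars2 (1.25, adjusted p = 3.2e-07) and Nars2 (1.00, adjusted p = 1.3e-06), and in A1 the order was Sars2 (2.38, adjusted p = 6.3e-16), Mars2 (1.30, adjusted p = 2.0e-10) and Pars2 (1.04, adjusted p = 9.0e-09). Sars2 stood at 20.1, 19 and 19.6 CPM in CHO-S exponential cultures, below every culture of either other line. Lower in A0 were Iars2 (-0.96, adjusted p = 1.1e-07), Aars2 (-0.83, adjusted p = 1.2e-05) and Hars2 (-0.80, adjusted p = 7.5e-06), and in A1 Iars2 (-0.80, adjusted p = 9.6e-14), Tars2 (-0.60, adjusted p = 2.9e-07) and Ears2 (-0.45, adjusted p = 2.0e-04). Left-out cultures changed calls for A0 in Mars and Pars2 without A0 exponential culture 1 (0.0541 to 0.0597), Mars and Yars without A0 exponential culture 2 (0.0589 to 0.0648), Mars, Yars and Pars2 without CHO-S exponential culture 1 (0.0981 to 0.123), Mars and Vars without CHO-S exponential culture 2 (0.06 to 0.104) and Vars, Yars and Pars2 without CHO-S exponential culture 3 (0.0501 to 0.0752). For A1 they changed Kars and Vars2 without A1 exponential culture 1 (0.0637 to 0.0962), Kars without A1 exponential culture 2 (0.14), Kars and Vars2 without A1 exponential culture 3 (0.0665 to 0.0904), Kars without CHO-S exponential culture 2 (0.168) and Kars, Aars2, Vars2 and Wars2 without CHO-S exponential culture 3 (0.067 to 0.174).

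In stationary phase A0 had 14 cytosolic genes higher than CHO-S and 1 lower, and 5 mitochondrial genes higher and 2 lower, against 20.7% and 19.3% of all genes. The cytosolic median was 0.88, the mitochondrial 0.26 and that of all genes 0.08. Without CHO-S stationary culture 1 the cytosolic counts were 16 and 2 and the mitochondrial 6 and 6, against 28% and 23.8%, and the cytosolic median was 0.92. Yars stood at 494, 446, 376 and 402 CPM in A0 and 85.7, 127 and 129.5 in CHO-S, a log2 fold change of 1.88 (SE 0.19, adjusted p = 3.4e-05), with no overlap. Close behind were Farsb (1.87, adjusted p = 1.4e-05), Iars (1.86, adjusted p = 8.8e-06), Tars (1.65, adjusted p = 1.1e-05) and Gars (1.58, adjusted p = 8.5e-06), the gene that was lower was Dars (-0.55, adjusted p = 0.0448), which became -0.24 without CHO-S culture 1, and Eprs was nearest 0 (-0.05). Without CHO-S culture 1 Farsb, and not Yars, had the largest cytosolic value (1.99). Mitochondrial genes furthest above CHO-S were Mars2 (1.71, adjusted p = 3.0e-04), Pars2 (1.45, adjusted p = 0.00145) and Nars2 (0.97, adjusted p = 0.00293), and those below were Iars2 (-0.97, adjusted p = 3.0e-04) and Tars2 (-0.71, adjusted p = 0.00365). Left-out cultures removed Dars and Tarsl2 without A0 stationary culture 1 (0.0831 to 0.0987), Dars and Tarsl2 without A0 stationary culture 2 (0.077 to 0.0954), Dars without A0 stationary culture 3 (0.0921), Dars and Tarsl2 without A0 stationary culture 4 (0.0575 to 0.0836), Dars, Tarsl2 and Tars2 without CHO-S stationary culture 2 (0.0595 to 0.105) and Tarsl2 without CHO-S stationary culture 3 (0.184).

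A1 in stationary phase, set against the same CHO-S cultures, had 11 cytosolic genes higher and 1 lower, and 5 mitochondrial genes higher and 1 lower, beside 18.2% and 16.6% of all genes. Its cytosolic median was 0.57, its mitochondrial median -0.03 and that of all genes 0.06. Without culture 1 there were 14 and 2 cytosolic and 5 and 7 mitochondrial calls, against 29.9% and 27.5%, with a cytosolic median of 0.70. Furthest above CHO-S were Yars (1.47, adjusted p = 5.7e-04), Farsb (1.36, adjusted p = 4.4e-04), Tars (1.35, adjusted p = 2.8e-04), Vars (1.25, adjusted p = 0.041) and Mars (1.20, adjusted p = 0.00798), and the gene below was Wars (-0.49, adjusted p = 0.035). That order holds with all 3 CHO-S cultures, and without culture 1 Farsb had the largest value (1.45). Sars2 reached 68.0, 90.0 and 91.2 CPM in A1 against 2.06, 19.3 and 19.6 in CHO-S, a log2 fold change of 2.33 (SE 0.39, adjusted p = 0.00252), all A1 cultures being higher. Higher as well were Mars2 (1.71, adjusted p = 4.8e-04) and Pars2 (1.45, adjusted p = 0.00256), and lower was Iars2 (-1.01, adjusted p = 0.00114), with Lars2 nearest 0 (-0.03). Calls were lost for Farsa, Kars, Vars, Wars, Nars2 and Rars2 without A1 stationary culture 1 (0.0563 to 0.122), Farsa, Kars, Vars, Wars and Nars2 without A1 stationary culture 2 (0.0742 to 0.128), Farsa, Kars, Vars, Wars, Nars2 and Rars2 without A1 stationary culture 3 (0.0647 to 0.151), Kars, Vars, Wars, Nars2 and Rars2 without CHO-S stationary culture 2 (0.0635 to 0.132) and Kars, Vars, Wars and Rars2 without CHO-S stationary culture 3 (0.0508 to 0.128).

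Read across phases without CHO-S stationary culture 1, in comparisons of different samples that carry the same correlation in A0, 8 cytosolic genes were above CHO-S in A0 at both phases (Farsb, Gars, Kars, Mars, Rars, Tars, Tarsl2 and Yars, of 9 and 16) and Wars was below at both (of 7 and 2). Lars, Nars, Sars and Vars were lower than CHO-S in exponential and higher in stationary A0, and Dars the reverse. In A1 all 8 cytosolic genes that were higher in exponential phase were higher in stationary phase too (of 14), with Wars again below at both and Cars lower and then higher. Of the mitochondrial genes, 6 were higher (of 8 and 6) and 5 lower (of 6 and 6) at both phases in A0, and 5 higher (of 7 and 5) and 7 lower (of 8 and 7) in A1. Of all genes tested at both phases 20.2% were higher and 16.7% lower at both in A0, and 23% and 21.2% in A1. Those that were lower and then higher made up 0.735% in A0 and 1.21% in A1, and those higher and then lower 1.12% and 1.29%.

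**Figure D3:**
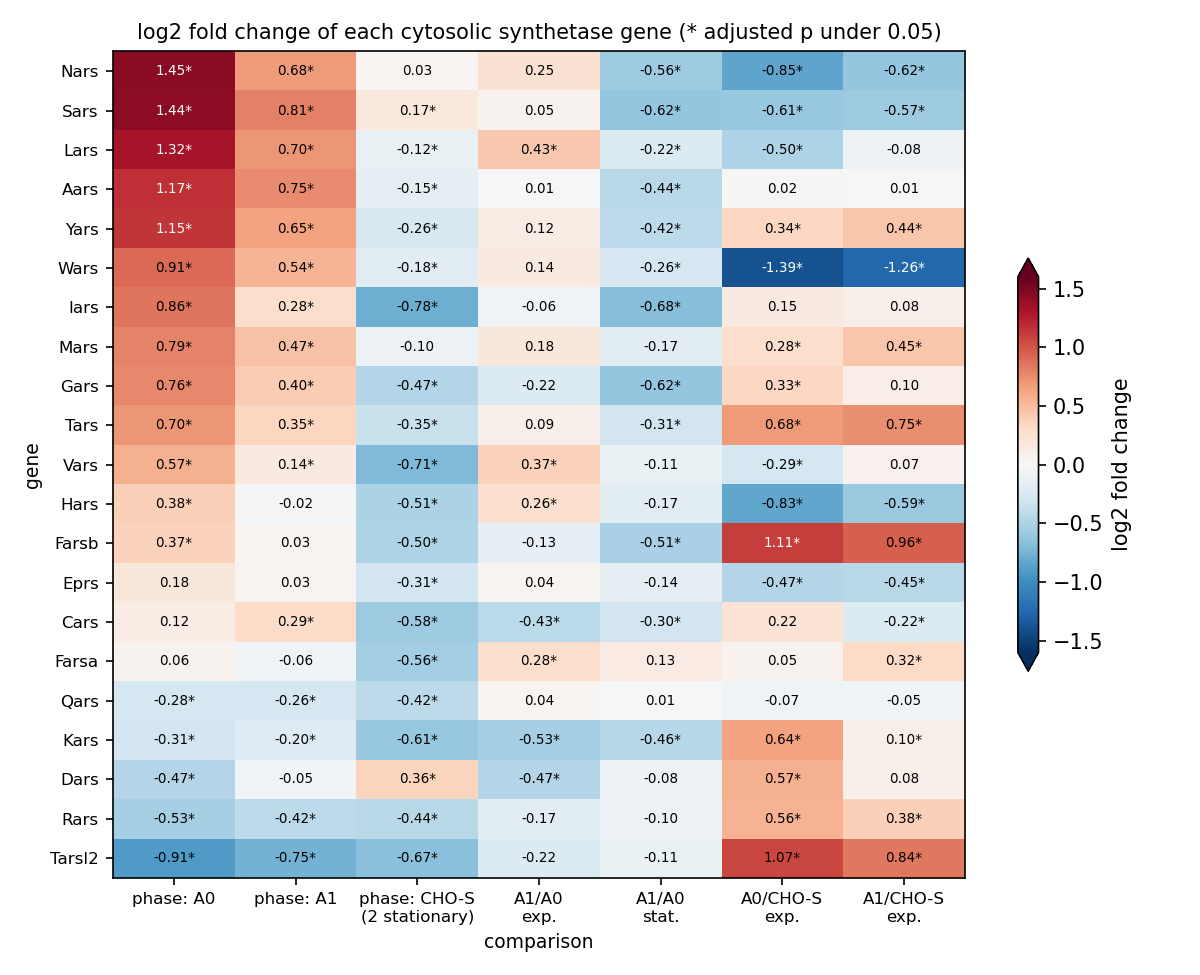
Log2 fold changes of the 21 cytosolic synthetase genes in 7 comparisons. Stars mark adjusted p under 0.05 by edgeR, and the CHO-S phase comparison is without stationary culture 1.

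Enzymes of the multisynthetase complex are held in 1 particle by their scaffolds. In A0 the 8 complex genes split, 3 up and 4 down between phases with a median of -0.05, while the 13 outside it had 10 up and 1 down with a median of 0.70. In A1 the counts were 3 up and 3 down (median -0.01) inside and 9 up and 1 down (median 0.35) outside. Of all genes 17.7% rose and 20.1% fell in A0, and 15.6% and 17.8% in A1, and the same shares apply to the counts by class below. Mean summed CPM of the outside set went from 2198 to 4072 in A0 and from 2286 to 3074 in A1, and the complex enzymes from 1829 to 2044 and from 1627 to 1679.6. CHO-S went down in both, from 2370.1 to 1962 outside and from 1643 to 1375 within the complex, the stationary means being 1972 and 1315 without culture 1. The difference between these sets was not tested. By structural class, of the 10 class I genes 6 rose and 2 fell in A0 and 7 and 2 in A1, and of the 11 class II genes 7 and 3 in A0 and 5 and 2 in A1. Eprs, which serves both glutamate and proline, was counted in class I alone. Among mitochondrial enzymes 2 of 9 class I genes rose and 2 fell in A0, 1 of 8 class II genes rose and 2 fell, and in A1 the falls numbered 2 and 4.

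Of the scaffolds that hold the complex, 2 fell and 1 rose in A0: Aimp1 (-0.79, adjusted p = 3.8e-04), Aimp2 (-0.60, adjusted p = 6.5e-05) and Eef1e1 (0.42, adjusted p = 0.00449). In A1 1 scaffold rose and 1 fell, and in CHO-S 1 fell, or 2 without stationary culture 1. Of 17 other genes of tRNA charging and elongation, such as Dtd1, which clears tRNA charged with D-amino acids, and the mitochondrial elongation factor Gfm1, 4 rose and 1 fell in A0 (median -0.06), 1 rose and 6 fell in A1 (-0.12), and 3 fell in CHO-S (-0.30). Without CHO-S stationary culture 1 the CHO-S counts were 1 up and 10 down (-0.26). Of all genes 17.7% rose and 20.1% fell in A0, 15.6% and 17.8% in A1, 6.81% and 6.48% in CHO-S, and 23.1% and 24.7% in CHO-S without culture 1.

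The Atf4 list holds the eIF2alpha kinases, Atf4 and genes known to answer to it in mammals, with 28 genes in the table. Cebpb and Vldlr were not analysed here, and the kinase Eif2ak2 appears as LOC100757909, which is at 0 in CHO-S and was dropped from comparisons with that line. In A0 19 of the 28 rose and 1 fell in stationary phase (median 1.12), where 17.7% and 20.1% of all genes did so, and in A1 20 rose and 2 fell (median 0.41), where 15.6% and 17.8% did. In CHO-S 4 of 27 rose and 3 fell (median -0.12) beside 6.81% and 6.48%, and without stationary culture 1 there 7 rose and 11 fell (median -0.07) beside 23.1% and 24.7%. Atf4 itself changed by 1.30 (SE 0.16, adjusted p = 1.0e-05) in A0, 1.17 (SE 0.06, adjusted p = 2.1e-16) in A1 and -0.05 (SE 0.13, adjusted p = 0.836) in CHO-S, and Asns, the asparagine synthetase gene, by 1.34 (SE 0.25, adjusted p = 4.2e-04), 1.00 (SE 0.07, adjusted p = 5.4e-13) and -0.07 (SE 0.18, adjusted p = 0.83). Ddit3, a stress-induced partner of Atf4, changed by 3.74, 2.34 and 2.49 (adjusted p = 1.3e-10, 7.9e-19 and 0.00461), so that part of the list moved in CHO-S as well. Without culture 1 the CHO-S changes were Atf4 (-0.11, adjusted p = 0.042), Asns (0.07, adjusted p = 0.439) and Ddit3 (2.07, adjusted p = 2.0e-46). These genes were picked from the list after their values had been seen.

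In the tests of phase response the median of the Atf4 list had the same sign as that of the cytosolic synthetases. The list and the synthetases were not tested against each other. Between A1 and A0, 8 of 28 genes had a lower change (median -0.33), as had 3.9% of all genes. Against CHO-S, 20 of 27 had a higher change in A0 (median 1.27) and 14 of 27 in A1 (median 0.82), beside 3.78% and 3.83% of all genes. Without CHO-S stationary culture 1 these were 21 in A0 (median 1.19) and 21 in A1, with 1 lower (median 0.67), where 8.43% of all genes were higher in A0, and 13% higher and 12.4% lower in A1. In exponential cells 8 of 28 were higher and 5 lower in A1 than in A0 (median 0.01), against 12% and 13.8% of all genes, and in stationary cells 3 were higher and 15 lower (-0.35), against 16% and 17.7%. Whether Atf4 drives the synthetase genes in these cells was not tested.

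By their positions in the gene table some members lie over other genes, and reads from such a neighbour could enter their counts. Spans were compared by chromosome label, start and end alone. Whether every label stands for a single sequence was not checked, so some of these overlaps may not be real. Nor was it checked that the gene table matches the annotation used for counting. By the gene table, 15 of the 38 overlap another annotated gene and 9 a protein-coding one. By these positions Hars and Hars2 overlap each other, Mars overlaps Ddit3, Wars overlaps Wdr25 and Aars2 overlaps Ank2. Likewise Iars2 overlaps Bpnt1, Rars2 overlaps Orc3, Vars2 overlaps Lcp1, and Wars2 overlaps Hook3, Rnf170 and Thap1. For Aars2 the genes listed directly before and after it are Spats1 and Tcte1, not Ank2. The strand setting of the count step is not given, so the share of neighbouring reads in these genes is unknown. Ddit3 rose in all 3 lines in stationary phase. Mars changed by 0.79 (SE 0.09, adjusted p = 4.0e-06) in A0, 0.47 (SE 0.06, adjusted p = 5.1e-07) in A1 and, in CHO-S, -0.10 (SE 0.06, adjusted p = 0.211) without culture 1. With all CHO-S cultures Mars stood at 65.7, 67.3 and 74.3 CPM in exponential and 29.9, 60.8 and 69.5 in stationary phase. Whether reads of Ddit3 entered the counts of Mars was not tested.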

How the data were processed

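The authors aligned reads with STAR 2.5.4b to C_griseus_v1.0 and made the deposited count per gene with HTSeq 0.7.2; strand setting and annotation release are not stated. The table holds 28037 genes and 5 HTSeq summary lines, left out of the fits. Of all reads, 2.31% to 11.5% did not align and 11.9% to 32.8% lay outside genes.

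The 8 A0 exponential libraries were summed by culture number to 4 samples. Within a culture the second library differed from the first by a median of 0.0131 to 0.0841 on the log2 scale over the members. Single members ranged from -0.47 to 0.692 in culture 1, -0.276 to 0.553 in culture 2, -0.272 to 0.542 in culture 3 and -0.171 to 0.238 in culture 4, with 3, 1, 1 and 0 of the 38 beyond 0.5. Comparisons were fitted on the cultures involved with edgeR 4.0.16 (limma 3.58.1, R 4.3.3): genes reaching 1 count in 2 or more cultures, with variance above 0, TMM, quasi-likelihood F test, Benjamini-Hochberg over all genes tested, called at adjusted p under 0.05. The standard error (SE) is |log2 fold change| / sqrt(F). CPM come from 1 TMM over all 20 cultures, with prior count 2 for logarithms. The coefficient of variation between replicates was 0.0452 to 0.195 (edgeR common dispersion).

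Alternatives were DESeq2 1.42.0, RLE factors, library totals alone, filterByExpr, culture number as block, 1 fit of all 6 groups, each culture left out, the first A0 library of each culture alone, and A0 cultures 1 and 2 or 3 and 4 alone. The direction of each named member was checked under every scaling. Code was tested on simulated data. Whether stationary culture n continued exponential culture n was checked by correlation. In A0 it exceeded 0.1 in all 4 pairs (0.191 to 0.436), in A1 and CHO-S not in all 3. A0 stationary cultures 1 and 2 correlated most with the exponential culture of their own number. Stationary cultures 3 (0.274) and 4 (0.191) correlated more with an exponential culture of another number. Pairing by number is therefore not established in A0. With culture number as block in A0 the 25 member calls became 26, the addition being Mars2 (-0.27, adjusted p = 0.0311), which had adjusted p = 0.104 without block.

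Named per comparison were, among members past the threshold, the 5 largest rises and 5 largest falls of the cytosolic and the 3 largest of each of the mitochondrial genes, the member nearest 0 and, for interactions, every member past the threshold, with values per culture for the leading 1 or 2, though not every gene that meets the rule is named. Members named elsewhere (in shared calls, left-out cultures, A0 cultures 1 and 2 or 3 and 4 alone, or fits without CHO-S stationary culture 1) were chosen after their values were seen. Members and lists were chosen with earlier results of these data known.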

Additional observations from a re-analysis of the deposited data

Results flagged for a closer look

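Among the 76 groups of 4 A0 cultures, 1 per member and phase, 5 held a culture far from the other 3, by the gap to its neighbour as a share of the range (Dixon's 95% critical value, passed by chance in about 1 of 20 groups). They were Dars, lowest in A0 exponential culture 4 (0.913), Lars2, highest in the same culture (0.864), Nars2, lowest in A0 stationary culture 3 (0.906), Wars2, lowest in A0 stationary culture 4 (0.93), and Yars2, lowest in A0 stationary culture 2 (0.939). Groups of 3 were not tested.

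The stationary change was called different between lines, by the interaction test of edgeR, for 38 pairs of gene and lines. Of all genes, 5.04% were called higher and 3.9% lower between A1 and A0. The shares were 3.78% and 6.57% between A0 and CHO-S, and 3.83% and 3.77% between A1 and CHO-S. Calls kept under every alternative numbered 1 of 11, 9 of 17 and 4 of 10 in the same order. Between A1 and A0 the differences in log2 change were Aars (-0.45), Gars (-0.40), Hars (-0.43), Iars (-0.62), Lars (-0.65), Nars (-0.81), Sars (-0.67), Tars (-0.39), Vars (-0.47), Yars (-0.54) and Pars2 (-0.61). Between A0 and CHO-S they were Aars (1.35), Dars (-1.09), Farsa (0.79), Farsb (0.78), Gars (1.25), Hars (0.90), Iars (1.71), Lars (1.39), Mars (1.05), Nars (0.97), Sars (1.44), Tars (0.98), Vars (1.59), Wars (1.15), Yars (1.53), Pars2 (0.98) and Wars2 (0.93). Between A1 and CHO-S they were Aars (0.93), Cars (0.77), Gars (0.89), Hars (0.51), Iars (1.13), Lars (0.78), Sars (0.82), Tars (0.63), Wars (0.78) and Yars (1.04). The value of Nars between A0 and CHO-S became 1.46 without CHO-S stationary culture 1. The 3 sets of values share cultures, and the tests with CHO-S were chosen after seeing the data.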

How the results depend on the processing

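No named member past the threshold reversed direction under any alternative, while the 9 that were not past it each took the other sign in at least 1 refit. Of 2323 refits of named members 2104 kept their side of the threshold and 219 lost the call, and the cause was not tested. Member counts stayed within 1.5 times the reported ones except as follows. With all 6 groups in 1 fit, the phase counts became 12 for A1 (22 reported) and 14 for CHO-S (6 reported). The interaction of A1 and A0 became 2 (11 reported), where 2.77% of all genes were higher and 1.78% lower. Culture number as block left 0 for the CHO-S phase comparison, where only 1.22% of all genes rose and 0.795% fell. For the interaction of A1 and A0, a block nested in line, chosen after seeing the data, gave 18, against 8.92% higher and 7.47% lower among all genes. A0 cultures 1 and 2 alone gave 20, against 12% and 10.7%. For the interaction of A0 and CHO-S (17 reported), cultures 1 and 2 alone gave 11 and cultures 3 and 4 alone 10. Where no share of all genes stands beside a count, a change in that count is not specific to the synthetases.

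When cultures were omitted singly, the counts ran from 7 to 16 for A1 against A0 in exponential (14 reported) and 14 to 18 in stationary phase (18), 26 to 31 and 19 to 30 for A0 against CHO-S (30 and 22), 25 to 29 and 12 to 28 for A1 against CHO-S (29 and 18), 22 to 25 for phase in A0, 18 to 21 in A1 and 0 to 25 in CHO-S, and 2 to 15, 12 to 22 and 4 to 21 for the interactions of A1 and A0, A0 and CHO-S, and A1 and CHO-S (10 reported). The upper ends 30, 28, 25, 22 and 21 came without CHO-S stationary culture 1, and what sets it apart was not tested. Removing 1 culture of 3 leaves fewer samples to test. Shares of all genes without CHO-S stationary culture 1 are given above, and those for the other omissions are not. These ranges therefore describe how calling changed and are not specific to the synthetases.

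Library totals alone shifted the median of all genes by 0.109 for A0 and 0.156 for A1 against CHO-S in stationary phase, leaving out CHO-S stationary culture 2 shifted it by 0.133 for A0, DESeq2 by -0.121 and -0.137 in the interactions with CHO-S, and filterByExpr by -0.102 for A0 against CHO-S in exponential phase.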
